A study of Mus musculus and Rattus norvegicus with 6 samples.

Results

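miR-191 and miR-425 are cut from 2 neighbouring hairpins that are described as parts of 1 transcript. Their levels, arms and mutual balance were examined in the retina of rat and mouse. The members were all names with either of these miRNA numbers, with any letter or arm, in the count table of either species, 9 of 2679 names. There are 5 of them among 764 rat names (miR-191a-5p, miR-191a-3p, miR-191b, miR-425-5p and miR-425-3p) and 4 among 1915 mouse names (miR-191-5p, miR-191-3p, miR-425-5p and miR-425-3p). Mouse miR-191 was paired with rat miR-191a, and both are called miR-191 below. Small RNA was sequenced from retinas of wild-type Sprague Dawley rats and of wild-type C57BL/6 mice, all aged 9 weeks and with no treatment in the labels, with 3 libraries per species named r1, r2, r4 and m1, m3, m4. The labels do not say whether a library is 1 animal or a pool, so the p-values measure the spread between libraries, which may be technical. Species, strain and the table in which reads were counted change together and cannot be told apart.

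A miRNA hairpin is cut by Drosha and Dicer into a short duplex, of which 1 strand, the guide, is kept in an Argonaute protein and the other, the passenger, is mostly degraded. The guide pairs with target messenger RNAs mainly through its seed, bases 2 to 8, and lowers their output. miR-191 is expressed in many tissues, and miR-191-5p and miR-425-5p are both used as reference miRNAs when small RNA measurements are normalized. In human and mouse the pair lies at the gene DALRD3, which is described as their host.

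In the mouse genome (GRCm38.p6, RefSeq) the miR-191 hairpin lies at chr9:108568319-108568392 and the miR-425 hairpin at chr9:108568777-108568861, both on the plus strand and 384 bases apart. The RefSeq gene record of Dalrd3 (chr9:108567484-108572773) spans both. GENCODE M21 instead starts Dalrd3 downstream of them, at 108569886, and places them in the noncoding RNA gene 4833445I07Rik (chr9:108567533-108569174). Both hairpins lie in the only exon of 1 of its transcripts. In the other transcript miR-191 lies in the intron and miR-425 lies beyond the end. GENCODE also lists a miRNA gene, Gm24083, on the opposite strand over miR-191, for which no value was looked up. The hairpins are shown because the arms counted below are cut from them, 5′ to 3′, with the mature arms in capitals (the 5p arm first, then the 3p arm), from RefSeq.
Mir191: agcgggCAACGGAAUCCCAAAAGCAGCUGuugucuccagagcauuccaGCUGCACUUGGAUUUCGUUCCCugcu
Mir425: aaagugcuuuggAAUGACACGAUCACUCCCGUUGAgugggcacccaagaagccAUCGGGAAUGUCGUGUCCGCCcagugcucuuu

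The hairpins are 74 bases (miR-191) and 85 bases (miR-425) long, each with a GC content of 54.1%. The 4 mature mouse sequences follow with the seed in capitals, together with the only other mouse miRNA of the RefSeq table that has a seed of theirs, miR-489-3p (on chromosome 6). Rat sequences were not used here, so the members were paired between species by name.
mmu-miR-191-5p: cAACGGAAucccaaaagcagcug
mmu-miR-191-3p: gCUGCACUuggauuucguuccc
mmu-miR-425-5p: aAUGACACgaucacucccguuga
mmu-miR-425-3p: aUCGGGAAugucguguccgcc
mmu-miR-489-3p: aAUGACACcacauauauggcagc

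The 4 arms have 4 different seeds, so the 2 hairpins do not share a target seed. Of 1679 mature names in that table, miR-425-5p and miR-489-3p share AUGACAC, and the seeds of the other 3 arms occur in no other name. miR-489-3p was nearly absent, with 0, 1 and 1 counts in r1, r2 and r4 and 2, 0 and 2 counts in m1, m3 and m4, far fewer than miR-425-5p had in every library. Since no rat sequences were used, other rat names with that seed were not looked for.

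The libraries held 24169628 to 30514632 counts. The 7 retinal marker miRNAs (miR-124 and miR-9 of neurons, miR-204 and miR-211, and miR-182, miR-183 and miR-96 of photoreceptors) summed to 481275 to 564028 CPM (reads per 1000000 counts in the library) in rat and 522919 to 547699 CPM in mouse. Rat library r1 stood apart: across 428 miRNAs tested below, its CPM was 0.622 times the mean of r2 and r4 at the median. The lens and cornea markers miR-184 and miR-205 summed to 9374 CPM in r1, against 1773 and 1136 CPM in r2 and r4 and 311 to 1249 CPM in mouse. Their part in the results was not tested. The tests of the members and of the other named miRNAs were repeated without r1.

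miR-191-5p was the dominant product of the locus. It had 124012, 270426 and 261145 counts in r1, r2 and r4, which are 5131, 10690 and 9261 CPM, against 157930, 171764 and 167237 counts in m1, m3 and m4, which are 5672, 5629 and 5934 CPM. Library r1 lay below all 3 mouse libraries on this scale, and r2 and r4 lay above them. Its mean of 8361 CPM ± 2887 (SD, n = 3) made it rank 23 of 764 names in rat, and 5745 CPM ± 165 (SD, n = 3) gave rank 24 of 1915 in mouse. The names next to it in rat were miR-378a-3p (8784 CPM ± 2136) above and let-7c-5p (7792 CPM ± 1710) below, and in mouse miR-125b-5p (6267 CPM ± 535) above and miR-211-5p (5504 CPM ± 254) below (SD, n = 3 each). In each species its distance to these neighbours was smaller than the larger SD of the pair, so the order among them is not resolved.

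miR-425-5p was far rarer. It had 3921, 4546 and 5336 counts in r1, r2 and r4 (162, 180 and 189 CPM), against 3024, 3418 and 2869 counts in m1, m3 and m4 (109, 112 and 102 CPM). All rat libraries lay above all mouse libraries. With 177 CPM ± 13.7 in rat and 107 CPM ± 5.20 in mouse (SD, n = 3 each) it ranked 133 in rat and 141 in mouse. In both species the names next to it (miR-329-5p and miR-3099 in rat, let-7a-1-3p and miR-361-5p in mouse) differed from it by less than its own SD.

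The passenger arms lay near 10 CPM. miR-191-3p had 202, 467 and 443 counts in r1, r2 and r4 (8.36, 18.5 and 15.7 CPM), against 235, 236 and 258 counts in m1, m3 and m4 (8.44, 7.73 and 9.15 CPM). miR-425-3p had 81, 250 and 281 counts in r1, r2 and r4 (3.35, 9.88 and 9.97 CPM), against 359, 410 and 409 counts in m1, m3 and m4 (12.9, 13.4 and 14.5 CPM). It was the only one of the 4 arms to lie lower in every rat library than in any mouse library. The rat paralog name miR-191b had 0, 1 and 1 counts, and at r1's depth a count of 0 allows up to 0.124 CPM (3 counts in the library, counting error only).

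**Figure D1:**
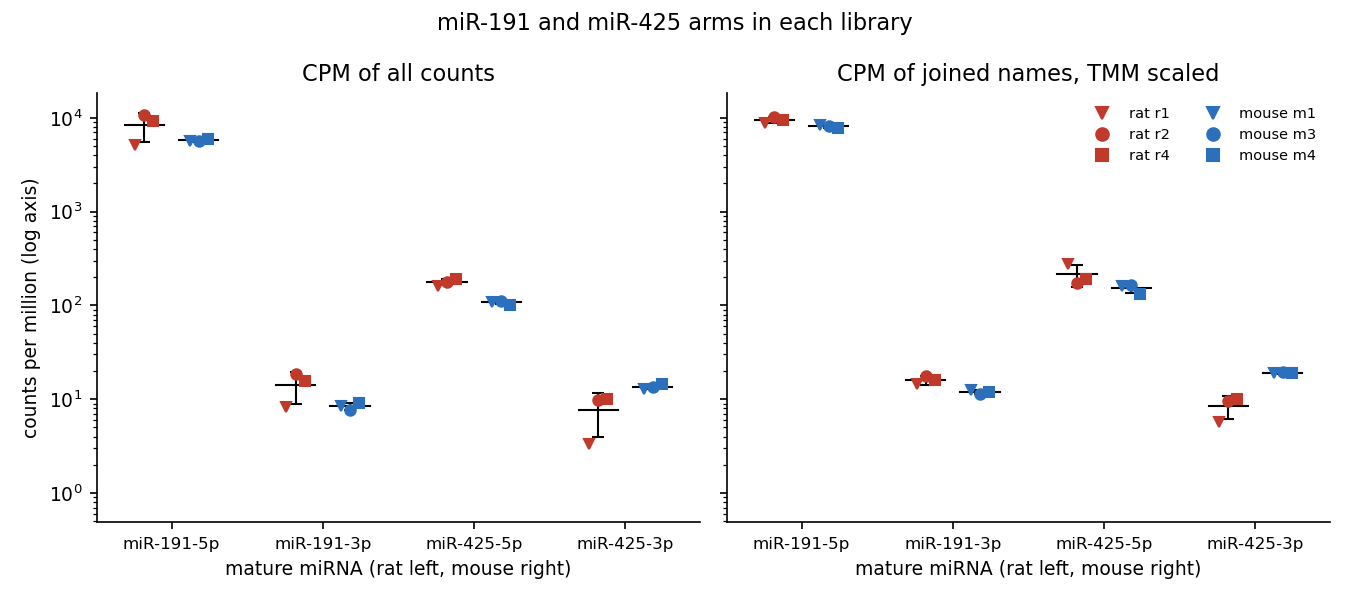
Level of the 4 arms in each library on a log axis, as CPM of all counts (left) and as CPM of the joined names after TMM scaling (right), with rat in red left of mouse in blue; bars give the mean ± SD (n = 3 each). The 5p arm of miR-191 lies far above the others, and miR-425-3p is the arm that is lower in each rat library than in each mouse library.

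To compare the species, names of the 2 tables were joined and 428 miRNAs were tested with edgeR's quasi-likelihood test on TMM-scaled counts, with Benjamini-Hochberg adjustment over all of them. At an adjusted p under 0.05, 50.5% of the miRNAs were called in either direction, 24.1% as higher in rat and 26.4% as lower in rat. All 4 arms passed the filter on low counts, and 1 of the 4 was called, miR-425-3p. A share of 1 in 4 is below that background and singles out nothing about the members as a group. In bulk tissue, fewer cells of a type and less RNA per cell cannot be told apart.

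miR-425-3p fell in rat. Its scaled level was 8.46 CPM ± 2.34 in rat and 19.1 CPM ± 0.391 in mouse (SD, n = 3 each), a log2 difference of -1.17 ± 0.23 (SE; edgeR adjusted p = 0.00322), which is 2.24-fold lower. Without r1 the difference was -0.95 (adjusted p = 2.29e-05). With library totals in place of TMM scaling it was -0.81 and was not called (adjusted p = 0.154). The median log2 difference of all tested miRNAs was 0.33 with library totals and 0.03 with TMM, so differences on the 2 scales are relative to these medians.

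The other 3 arms had higher mean levels in rat and did not pass the test. miR-425-5p had scaled levels of 279, 173 and 192 CPM in r1, r2 and r4, against 160, 163 and 132 CPM in m1, m3 and m4. The log2 difference was 0.50 ± 0.21 (SE; edgeR adjusted p = 0.0747), with a 95% interval of 0.03 to 0.97. Without r1, whose scaled value was the highest, it was 0.28 and was called (adjusted p = 0.00897). miR-191-3p differed by 0.44 ± 0.17 (SE; edgeR adjusted p = 0.0616), with an interval of 0.05 to 0.83.

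With all 6 libraries miR-191-5p showed the smallest difference of the 4, which was not so without r1. Its scaled level was 8835, 10285 and 9377 CPM in r1, r2 and r4, against 8356, 8193 and 7689 CPM in m1, m3 and m4. After scaling the 3 rat libraries lay above the 3 mouse libraries, although r1 had been the lowest of all 6 before scaling. The scaled levels of miR-191-3p and miR-425-5p also lay higher in every rat library, so 3 of the 4 arms lay higher in rat with no overlap, as did 27.8% of all tested miRNAs, and all 4 arms showed no overlap in some direction, as did 59.6%. The log2 difference of miR-191-5p was 0.23 ± 0.14 (SE; edgeR adjusted p = 0.211), with a 95% interval of -0.09 to 0.56. Without r1 it was 0.29 and was called (adjusted p = 0.00299), and so was miR-191-3p (0.52, adjusted p = 0.00324). Without r1 the test called more miRNAs in general, 157 as higher and 156 as lower in rat of 442 tested. With r1 it called 103 and 113 of 428.

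**Figure D2:**
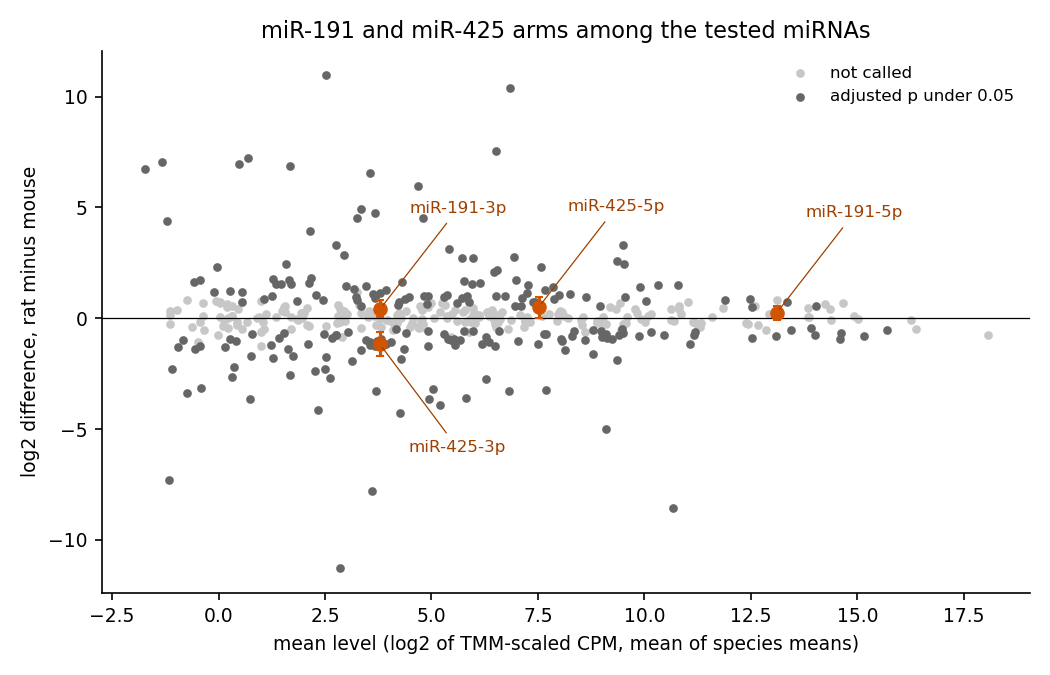
Log2 difference between the species (rat minus mouse) against the mean level of each of the 428 tested miRNAs, with called miRNAs in dark grey and the 4 arms in orange with 95% intervals. The interval of miR-425-3p lies below 0, and miR-191-5p lies close to 0 at the abundant end.

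The arms of miR-425 were therefore set against each other within each library, where no scaling enters. The 3p arm made up 2.02%, 5.21% and 5.003% of the hairpin's reads in r1, r2 and r4 (95% Wilson intervals 1.63 to 2.51%, 4.62 to 5.88% and 4.46 to 5.60%), against 10.6%, 10.7% and 12.5% in m1, m3 and m4 (9.62 to 11.7%, 9.77 to 11.7% and 11.4 to 13.7%). The intervals cover counting error only. The mean share was 4.08% ± 1.78 in rat and 11.3% ± 1.05 in mouse (SD, n = 3 each), and the species did not overlap. The 5p arm was the main product in every library.

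The ratio of 5p to 3p reads of miR-425 rose in rat. Arm ratios were tested with limma over 183 hairpins with both arms in both tables, of which 24% were called in either direction and 8.2% toward a higher 5p share in rat. The libraries of the species did not overlap for 46.4% of them. For miR-425 the log2 ratio differed by 1.69 ± 0.41 (SE; limma adjusted p = 0.0312; 95% interval 0.68 to 2.71), a 3.23-fold shift toward the 5p arm and the 12th highest of the 183. The median size of the difference over all hairpins was 0.59.

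The shift was smaller without r1, and its call was lost when any of 4 other libraries was left out. In r1 the log2 ratio lay 1.38 above the mean of r2 and r4. Of 183 hairpins, 21 (miR-425 included) moved at least as far toward the 5p arm. Moves toward the 3p arm were not counted, and some were larger. For miR-708 the log2 ratio was -4.50 in r1 against -1.52 and -1.96 in r2 and r4. The median of the signed moves was 0.02, with 95 hairpins above 0, so moves in the 2 directions cancel in it. Without r1 the species difference of miR-425 was 1.23 (adjusted p = 0.00405). It was 1.94 (adjusted p = 0.0401) without r2, but without r4, m1, m3 or m4 it lay between 1.61 and 1.91 with adjusted p of 0.0514 to 0.114. An exact permutation test over the 6 libraries gave p = 0.1 (two-sided), the smallest it allows.

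miR-191 had a very uneven arm ratio in both species. Its 3p arm held 0.163%, 0.172% and 0.169% of the hairpin's reads in r1, r2 and r4, with 95% Wilson intervals reaching from 0.142 to 0.189%. In m1, m3 and m4 the 3p arm held 0.149%, 0.137% and 0.154%, with intervals reaching from 0.121 to 0.174%. There were thus 579 to 614 5p reads for each 3p read in rat and 648 to 728 in mouse. By the excess of the 5p arm it ranked 21 of 183 hairpins in rat and 15 in mouse, while miR-425 ranked 50 and 67.

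The arm ratio of miR-191 differed by -0.20 ± 0.17 on the log2 scale (SE; limma adjusted p = 0.430), with a 95% interval of -0.61 to 0.21. All 3 rat ratios lay below all 3 mouse ratios, by less than the differences seen for miR-425. Unlike miR-425, the ratio in r1 was close to those of r2 and r4 (0.07 above their mean on the log2 scale).

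The opposite signs of the miR-425 arms in the abundance test were not rare: of 150 hairpins with both arms in that test, 45 (30%) had arms of opposite sign. The arms of miR-191 had the same sign.

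**Figure D3:**
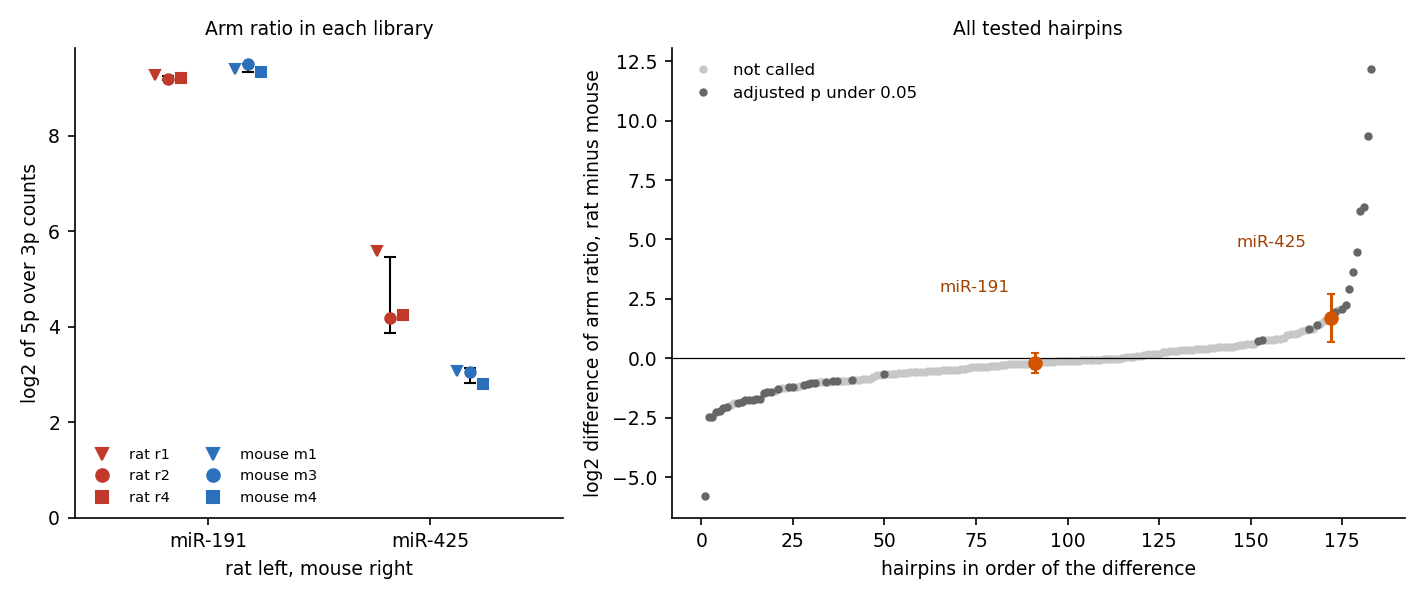
Left, log2 of the 5p over the 3p counts of miR-191 and miR-425 in each library, rat in red left of mouse in blue, with bars for the mean ± SD (n = 3 each). Right, the log2 difference of this ratio (rat minus mouse) for all 183 hairpins in rising order, with 95% intervals for the members: miR-425 lies near the upper end at 1.69 and miR-191 near the middle at -0.20.

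The balance of the hairpins was counted as the sum of both arms of miR-191 over that of miR-425. There were 31.04, 56.5 and 46.6 miR-191 reads for each miR-425 read in r1, r2 and r4, against 46.8, 44.9 and 51.1 in m1, m3 and m4. The 2 hairpins were thus represented unequally in both species, at a mean ratio of 44.7 ± 12.8 in rat and 47.6 ± 3.17 in mouse (SD, n = 3 each). The species overlapped, and with the spread in rat this does not show that the ratio is the same. Put as a share, miR-425 made up 3.12%, 1.74% and 2.10% of the reads of the pair in r1, r2 and r4, against 2.09%, 2.18% and 1.92% in m1, m3 and m4.

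This balance was tested with limma over 41 pairs of hairpins of 1 strand that lie within 10 kb in the mouse annotation. The hairpins of a pair are neighbours among those kept, so a hairpin that was left out can lie between them. Of these pairs 48.8% were called, and the libraries of the species did not overlap for 58.5%. Most of the 41 pairs come from 1 locus (Dlk1-Dio3), where many of the pairs share a hairpin, so this background is not made of independent loci. The log2 balance of miR-191 over miR-425 differed by -0.13 ± 0.23 (SE; limma adjusted p = 0.713), with a 95% interval of -0.70 to 0.44. The size of the difference was the 7th smallest of the 41, where the median was 0.53. Without r1 the difference was 0.11 (adjusted p = 0.427), on the other side of 0.

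The pairs with the nearest differences were, below it, those of miR-106b and miR-93 (-0.14 ± 0.52, from the miR-106b-25 cluster) and of miR-412 and miR-369 (-0.18 ± 0.46). Above it were those of miR-434 and miR-136 (-0.09 ± 0.11) and of miR-376a and miR-300 (-0.05 ± 0.24), the SE given in each case. None of these 4 was called (limma adjusted p of 0.582 to 0.895). They were picked for differences near that of miR-191 and miR-425, so the lack of calls is no separate result. All of them but miR-106b with miR-93 belong to the imprinted Dlk1-Dio3 locus. So do most of the 41 tested pairs, so this is no trait of the nearest pairs. By the size of the imbalance itself, miR-191 and miR-425 ranked 5 of 41 in rat and 2 of 41 in mouse.

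Library r1 set the members apart from each other. Its unscaled level was 0.514 times the mean of r2 and r4 for miR-191-5p and 0.489 times for miR-191-3p, both below the median of 0.622 over all tested miRNAs. It was 0.879 times for miR-425-5p and 0.338 times for miR-425-3p, so the arms of miR-425 moved apart in r1 while those of miR-191 moved together.

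**Figure D4:**
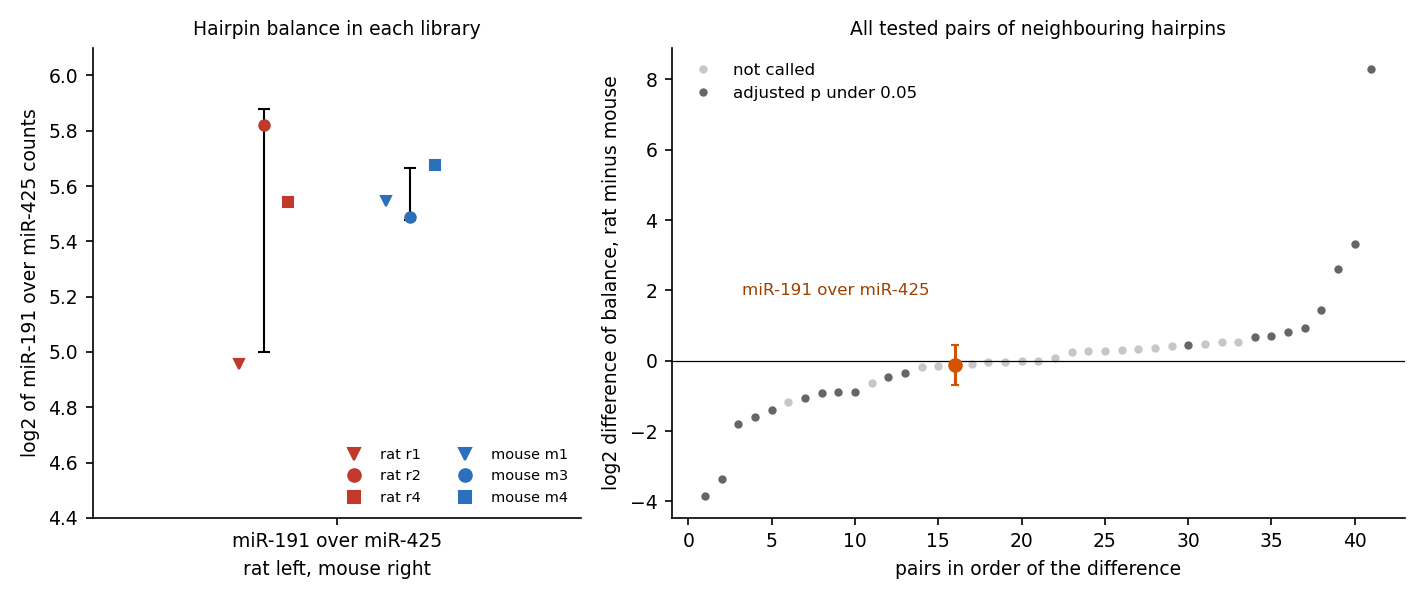
Left, log2 of miR-191 over miR-425 counts (both arms summed) in each library, rat in red left of mouse in blue, with bars for the mean ± SD (n = 3 each) and an axis that does not start at 0. Right, the log2 difference of the balance (rat minus mouse) for all 41 neighbouring pairs in rising order: miR-191 over miR-425 lies at -0.13 with a 95% interval across 0, and r1 is the lowest of the 6 libraries.

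Because both 5p arms serve as normalizers, they were examined within a list of 15 miRNAs in common use for that purpose, of which 14 could be tested. Of these, 1 rose in rat (miR-17-5p, of the miR-17-92 cluster), 4 fell and 9 were not called. miR-191-5p and miR-425-5p were among the last. Over all 428 tested miRNAs, 50.5% were called in either direction. The log2 differences of the 14 had a median size of 0.43, against 0.64 over all 428. The 4 that fell were miR-484 (-3.23 ± 0.18, adjusted p = 1.98e-06), miR-16-5p (-0.83 ± 0.24, 0.0214), miR-24-3p (-0.62 ± 0.16, 0.0126) and let-7a-5p (-0.43 ± 0.15, 0.0405), with SE and edgeR adjusted p. miR-17-5p differed by 1.04 ± 0.27 (adjusted p = 0.0132). With library totals in place of TMM the calls of miR-16-5p, miR-24-3p and let-7a-5p were lost, at -0.45, -0.29 and -0.17. That of let-7a-5p was also lost with exact names, with RLE factors and with TMM on the totals of all counts (-0.38, -0.39 and -0.39). Leaving out m1, m3 or m4 ended the calls of miR-17-5p and miR-16-5p, leaving out m3 or m4 that of miR-24-3p, and leaving out r2, r4, m3 or m4 that of let-7a-5p.

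More of the list was called without r1, with 6 members higher and 6 lower in rat and 2 not called. All 5 calls made with r1 were among them, and 7 were added, miR-191-5p and miR-425-5p included. Of all 442 miRNAs tested without r1, 157 were called as higher and 156 as lower in rat, so most miRNAs were called in that fit.

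The listed miRNAs that were not called included miR-26a-5p (-0.04 ± 0.14, 95% interval -0.37 to 0.29), miR-423-3p (-0.20 ± 0.13), miR-423-5p (0.19 ± 0.16) and miR-103-3p (-0.24 ± 0.14). They further included miR-25-3p (0.42 ± 0.17), miR-93-5p (0.44 ± 0.25) and miR-186-5p (0.32 ± 0.24). Without r1 these last 3 were called, at 0.28, 0.69 and 0.57 (edgeR adjusted p = 0.00368, 8.04e-05 and 2.15e-05), and so were miR-103-3p (-0.20, adjusted p = 0.02001) and miR-423-3p (-0.23, adjusted p = 0.0138). miR-26a-5p (0.010) and miR-423-5p (0.087) were not. miR-25-3p was called in 7 of 13 alternatives, and miR-93-5p, miR-186-5p, miR-103-3p and miR-423-3p in 1 each, the one without r1. The signs of miR-26a-5p, miR-423-3p and miR-103-3p turned with library totals. Over all 6 libraries the SD of the scaled log2 level was 0.15 for miR-191-5p, rank 12 from the smallest among the 161 names that reached 100 CPM, and 0.36 for miR-425-5p, rank 65. miR-26a-5p had the smallest SD of the 161 (0.070). Without scaling the SD of miR-191-5p was 0.44, rank 64, and that of miR-425-5p was 0.40, rank 53.

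**Figure D5:**
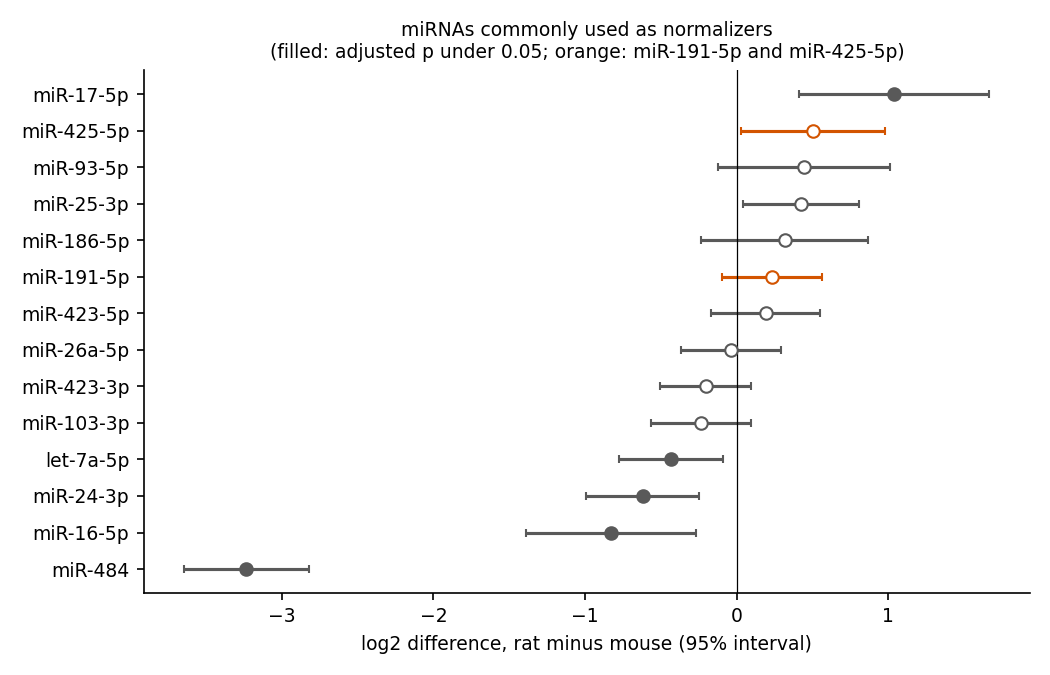
Log2 difference between the species (rat minus mouse) with its 95% interval for the 14 tested miRNAs in common use as normalizers, filled where the adjusted p was under 0.05, with miR-191-5p and miR-425-5p in orange. Both orange points are open and lie above 0, at 0.23 and 0.50, and miR-484 lies far below the rest at -3.23.

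The miRNAs whose pattern over the 6 libraries was most like that of miR-191-5p were miR-181a-1-3p, miR-26a-5p, miR-23a-3p, miR-328-3p and miR-361-5p. Likeness was the root mean square difference between scaled log2 levels, each centred on its own mean, among 160 miRNAs with at least 100 CPM, and it ran from 0.13 to 0.15. This measure includes the difference between the species. The names picked for either 5p arm thus tend by selection to have species differences like that of the arm. Of these 5, miR-361-5p was called between the species (0.53 ± 0.13, edgeR adjusted p = 0.0108). miR-328-3p differed by 0.17 ± 0.18 and was called without r1 (0.34, adjusted p = 0.00366). Nearest to miR-425-5p were miR-1843a-5p, miR-140-3p, miR-382-3p, miR-148b-3p and miR-25-3p, at 0.050 to 0.092. With all 6 libraries none of the 5 was called by edgeR, with log2 differences of 0.41 to 0.49 and adjusted p of 0.0647 to 0.195. Without r1 the differences were 0.12 to 0.34, and miR-382-3p (0.34, adjusted p = 0.00868), miR-25-3p and miR-1843a-5p (0.22, adjusted p = 0.0138) were called. Of 13 alternatives, 9 called miR-382-3p, 7 called miR-25-3p, 2 each called miR-1843a-5p and miR-140-3p, and 1 called miR-148b-3p. No name was on both lists, and neither 5p arm was among the nearest of the other.

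Markers of other cell types were detected in both species. Red blood cell markers summed to 162 to 296 CPM in rat (4 names, of which 2 or 3 had at least 10 counts in a library) and 200 to 215 CPM in mouse (5 names), and leukocyte and microglia markers (6 names) to 107 to 171 CPM in rat and 134 to 163 CPM in mouse. The 5 vascular and mesenchymal markers summed to 7626 to 8064 CPM in rat and 4303 to 5142 CPM in mouse, and the 3 muscle markers to 44.3 to 66.9 CPM in rat and 642 to 883 CPM in mouse. The part of these cells in the levels of miR-191 and miR-425 was not tested.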

How the data were processed

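For each species the authors deposited 1 table of unnormalized whole counts, with a row for each mature miRNA. Per the labels' protocols, RNA came from retinas dissected from eyes kept in RNAlater, and sequencing was single-end, 50 bases, on a HiSeq-2500. That text names rat eyes for both species. Not given in the sources used here are trimming, aligner, miRNA annotation and how reads matching several names were treated. The column numbers (1, 2, 4 in rat and 1, 3, 4 in mouse) are not the labels' replicate numbers, so columns were assigned to species only. All pairs of libraries of a species differed by more than sampling noise (chi-square per degree of freedom of at least 102).

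Names were joined after removal of the species prefix (542 exact), with 44 pairs differing by the letter a or a missing arm suffix (586 in all). The 6 libraries held 69.5 to 80.7% of their counts on joined names. Abundance was tested in R 4.3.3 with edgeR 4.0.16 (filterByExpr, TMM on joined totals, quasi-likelihood F test, species as the only term). SE is the log2 difference divided by the square root of F. Arm ratios and hairpin balance were tested with limma 3.58.1 on log2 of the 2 counts, each + 0.5, with at least 50 counts per hairpin in every library. Hairpins that share a mature name with another hairpin, or have no joined name, were left out of the balance before pairs were formed. Calls used a Benjamini-Hochberg adjusted p under 0.05. DESeq2 1.42.0 was an alternative. The edgeR test was also run on counts simulated from its fit. The arm ratio and balance tests were run on log2 ratios simulated as normal noise around the observed means. For both, the noise had 1 SD, taken from the arm ratios. The outcome of these runs is not given here. DESeq2 and the permutation test were not run on simulated data. Library totals give the depth, and counting intervals treat reads as independent molecules, although PCR copies are not.

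The members, lists, tests and the rule for named miRNAs were chosen with earlier results of these data known. The rule took every name numbered 191 or 425, the 5 nearest patterns to each 5p arm, the neighbours in rank, the normalizers, names sharing a seed and the 2 nearest pairs on each side in balance. The normalizer miR-106a-5p is in the mouse table only and was not tested.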

Additional observations from a re-analysis of the deposited data

How the results depend on the processing

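No paired analysis was possible because the table columns do not carry the replicate numbers of the labels. With library totals in place of TMM, 48 miRNAs were lower in rat, against 113, and the higher calls moved from 103 to 114. The log2 difference of miR-425-5p was called with exact names (0.55), wider names (0.48), library totals (0.72), no low count filter (0.51) and DESeq2 (0.56), so its call depended on the setting while its sign did not. Exact names leave the miR-191 arms out. miR-191-3p was called with TMM on totals of all counts (0.47), RLE factors (0.48) and DESeq2 (0.48), and miR-191-5p with DESeq2 (0.28). miR-425-3p was lower in rat in all 13 alternatives and lost its call with library totals (-0.81). The arm shift of miR-425 (1.69) had p = 0.1 by the exact permutation test, the smallest that 3 against 3 libraries allow, and kept its call with a pseudocount of 5 and with minimums of 10 and 200 counts. On joined names only, the mean level was 7225 CPM (miR-191-5p), 10.6 (miR-191-3p), 135 (miR-425-5p) and 17.1 (miR-425-3p) in mouse, and 235 CPM for miR-425-5p in rat.

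Leaving out 1 library at a time gave log2 differences of 0.17 to 0.29 for miR-191-5p, 0.36 to 0.52 for miR-191-3p, 0.28 to 0.64 for miR-425-5p and -1.30 to -0.95 for miR-425-3p. The arm difference ran from -0.23 to -0.15 for miR-191 and from 1.23 to 1.94 for miR-425, and the balance from -0.32 to 0.11, positive without r1 only. Over the same fits 84 to 157 miRNAs were higher, 90 to 156 lower, 25 to 67 hairpins had a called arm difference and 15 to 28 pairs a called balance difference. The highest counts came without r1, and the cause was not tested.

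Uncalled differences near 0 changed sign. miR-26a-5p was at 0.015 with exact names, 0.27 with library totals, 0.0053 with TMM on all counts, 0.0091 with RLE factors, 0.012 with DESeq2 and between -0.083 and 0.010 with 1 library left out. With library totals miR-103-3p was at 0.064 and miR-423-3p at 0.073. With 1 library left out, miR-23a-3p ran from -0.046 to 0.10 and miR-181a-1-3p from -0.017 to 0.14. Depth limits rat miR-191b, with at most 1 count in a library, and the 3p arm of miR-425 in r1, with 81 counts.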
